A study of Mus musculus with 15 samples.

Results

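Immediate early genes were followed in 5 populations of mouse cells that had been sorted by flow cytometry before their RNA was sequenced. The set held Fos, Fosb, Jun, Junb, Jund, Egr1, Atf3, Ier2, Ier3 and Dusp1, chosen by symbol, and all 10 were found among the 10222 gene symbols of the deposited expression table. The mice were C57BL/6 and carried 1 citrine reporter allele at Il33 (Il33cit/+), which all libraries shared and which marked cells that transcribe the cytokine gene Il33. Il33+ WAT-MSC and Il33- WAT-MSC were reporter-positive and reporter-negative PDGFRα+ CD34+ Sca1+ podoplanin+ multipotent stromal cells (MSC) of mesenteric white adipose tissue (WAT). The remaining populations were the reporter-positive stromal cells of lung (lung Il33+ MSC), CD31+ WAT endothelial cells and EpCAM+ lung epithelial cells. Each population had 3 libraries from separate experiments, 15 libraries in all. All cells went through dissociation of the tissue and sorting, and no library of unsorted tissue was analysed here, so none of the values separates what these steps may add from the level in the animal. The labels give no age for the mice, and whether a library pooled mice is not stated in the sources used here.

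Immediate early genes are transcribed within minutes of a stimulus, without new protein synthesis, when kinase cascades switch on transcription factors that already sit on their promoters. FOS and JUN family proteins pair to form the transcription factor AP-1, EGR1 and ATF3 are transcription factors of other families, and DUSP1 dephosphorylates the kinases that induce the set. Enzymatic dissociation of tissue is a known inducer of these genes, and their transcripts are short-lived.

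Promoter sequences are shown for 4 members to display the letters that kinase-driven transcription factors are known to recognise. RefSeq held the 300 bases from 250 before to 50 after the annotated start for 8 of the 10 members on GRCm38.p6, the same assembly as the mm10 build of the files, and had no entry for Egr1 or Ier2. Both strands were searched for the cAMP response element TGACGTCA, its core TGACG (which lies inside it), the AP-1 site TGANTCA, the CArG box that serum response factor binds, the EGR site GCGNGGGCG and the TATA motif TATAAA. Capitals mark a match on either strand. The first sequence is Fos at chr12:85473640-85473939 on the plus strand, the second Fosb at chr7:19309996-19310295 on the minus strand, the third Atf3 at chr1:191183284-191183583 on the minus strand, and the last Dusp1 at chr17:26508423-26508722 on the minus strand.
Fos: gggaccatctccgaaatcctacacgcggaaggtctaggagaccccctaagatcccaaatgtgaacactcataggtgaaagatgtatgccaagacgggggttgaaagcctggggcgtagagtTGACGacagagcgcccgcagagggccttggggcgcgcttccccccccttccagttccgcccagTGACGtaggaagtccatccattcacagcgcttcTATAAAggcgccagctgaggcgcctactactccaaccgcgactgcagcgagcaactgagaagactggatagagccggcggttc
Fosb: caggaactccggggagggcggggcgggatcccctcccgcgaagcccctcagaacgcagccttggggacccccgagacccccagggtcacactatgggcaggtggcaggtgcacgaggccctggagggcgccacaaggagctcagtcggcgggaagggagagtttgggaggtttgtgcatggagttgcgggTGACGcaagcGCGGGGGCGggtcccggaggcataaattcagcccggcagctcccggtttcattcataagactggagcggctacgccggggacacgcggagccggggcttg
Atf3: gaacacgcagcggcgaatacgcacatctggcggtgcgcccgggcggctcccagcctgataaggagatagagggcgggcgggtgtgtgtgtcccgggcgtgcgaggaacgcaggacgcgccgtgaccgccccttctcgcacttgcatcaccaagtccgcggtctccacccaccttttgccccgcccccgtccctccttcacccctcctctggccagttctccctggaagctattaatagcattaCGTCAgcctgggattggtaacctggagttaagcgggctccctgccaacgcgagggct
Dusp1: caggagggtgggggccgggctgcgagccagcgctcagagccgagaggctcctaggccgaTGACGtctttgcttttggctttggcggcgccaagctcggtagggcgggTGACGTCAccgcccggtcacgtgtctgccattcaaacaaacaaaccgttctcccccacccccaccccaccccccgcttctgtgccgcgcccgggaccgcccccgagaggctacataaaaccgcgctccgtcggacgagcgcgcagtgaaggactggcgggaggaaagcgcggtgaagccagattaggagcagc

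The core TGACG was found in 5 of the 8 promoters, those of Fos, Fosb, Junb, Atf3 and Dusp1, against 20.91% of 32544 mouse promoters of the same length. The complete element TGACGTCA was found in Dusp1 alone, where it begins 143 bases before the start, against 1.8% of all promoters. In Fos, this core begins 129 and 66 bases before the start and TATAAA 33 bases before it. TATAAA was found in Fos and Junb (13.57% of all promoters) and the EGR site in Fosb (5.6%). The AP-1 site (7.79%) and the CArG box (1.64%) had no match in these 8 windows, which says only that these letters are not in the 300 bases searched. These matches are descriptions of sequence, since no binding was measured.

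Expression was deposited as RPKM, the reads of a transcript divided by its length and by the mapped reads of the library, and the values of all transcripts with the same symbol were added. Jund had 2 listed transcripts with identical values in every library, so its summed level is double that of either, which leaves its differences between populations almost unaltered but raises its rank, and the other 9 members had 1 each. Alignments per library ranged from 42711843 to 60773158. A single transcript, that of the club cell secretory protein Scgb1a1, took 57.7 to 62.9% of the summed RPKM in the lung epithelial libraries and at most 0.248% in any other library. Reads of such a transcript count among the mapped reads, so they lower every other RPKM of its library. The lowering depends on its share of the reads, which is not given here. The share of summed RPKM is not that share, because RPKM is also divided by length. Markers of the labelled cell type were present in each population, with 447 to 470 summed RPKM of endothelial markers in the endothelial cells and at most 64.0 in the other libraries, and 161756 to 209183 of epithelial markers in the epithelial cells. Stromal markers summed to 3191 to 6057 in the MSC libraries, to 1386 to 2974 in the endothelial cells and to 114 to 180 in the epithelial cells. Leukocyte markers, of which 5 of the 8 listed were in the table, summed to 698 to 1331 in the epithelial cells, 136 to 168 in lung Il33+ MSC, 8.77 to 166 in the endothelial cells and 7.27 to 41.7 in both WAT-MSC populations. Lyz2 made up most of the sum in the epithelial cells (658 to 1301 RPKM) and in lung Il33+ MSC (105 to 145). Each other leukocyte marker was at most 15.5 RPKM in these 2 populations. Pericyte and smooth muscle markers summed to 174 to 257 in the endothelial cells and to at most 18.8 elsewhere. Mesothelial markers summed to 52.4 to 186 in the endothelial cells, 81.5 to 154 in the epithelial cells, 30.0 to 98.2 in Il33+ WAT-MSC, 20.1 to 32.3 in Il33- WAT-MSC and 4.56 to 6.57 in lung Il33+ MSC. The epithelial sum was nearly all Krt19 (75.5 to 153 RPKM), and each other mesothelial marker was at most 5.54 RPKM there. No defining marker of any list was at 0 in all 3 libraries of a population.

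The 10 genes stood high among the transcripts of every population. They made up 2.25 to 5.12% of the summed RPKM of the MSC and endothelial libraries and 0.404 to 0.631% of that of the epithelial libraries. By mean RPKM, 5 or 6 of the 10 stood among the first 100 genes of each population, and 7 to 10 among the first 500. The lowest rank of any member among 10222 symbols was 816 in Il33+ WAT-MSC (Ier2), 668 in Il33- WAT-MSC (Ier3), 473 in lung Il33+ MSC (Ier2), 815 in the endothelial cells (Ier2) and 1176 in the epithelial cells (Junb). These ranks depend on the summed value of Jund. With 1 of its identical transcripts in place of the sum, Jund ranked 692, 550, 557, 1031 and 1217 in Il33+ WAT-MSC, Il33- WAT-MSC, lung Il33+ MSC, endothelial and epithelial cells and became the lowest member in the last 3, and 7 to 9 members stood among the first 500.

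**Figure D1:**
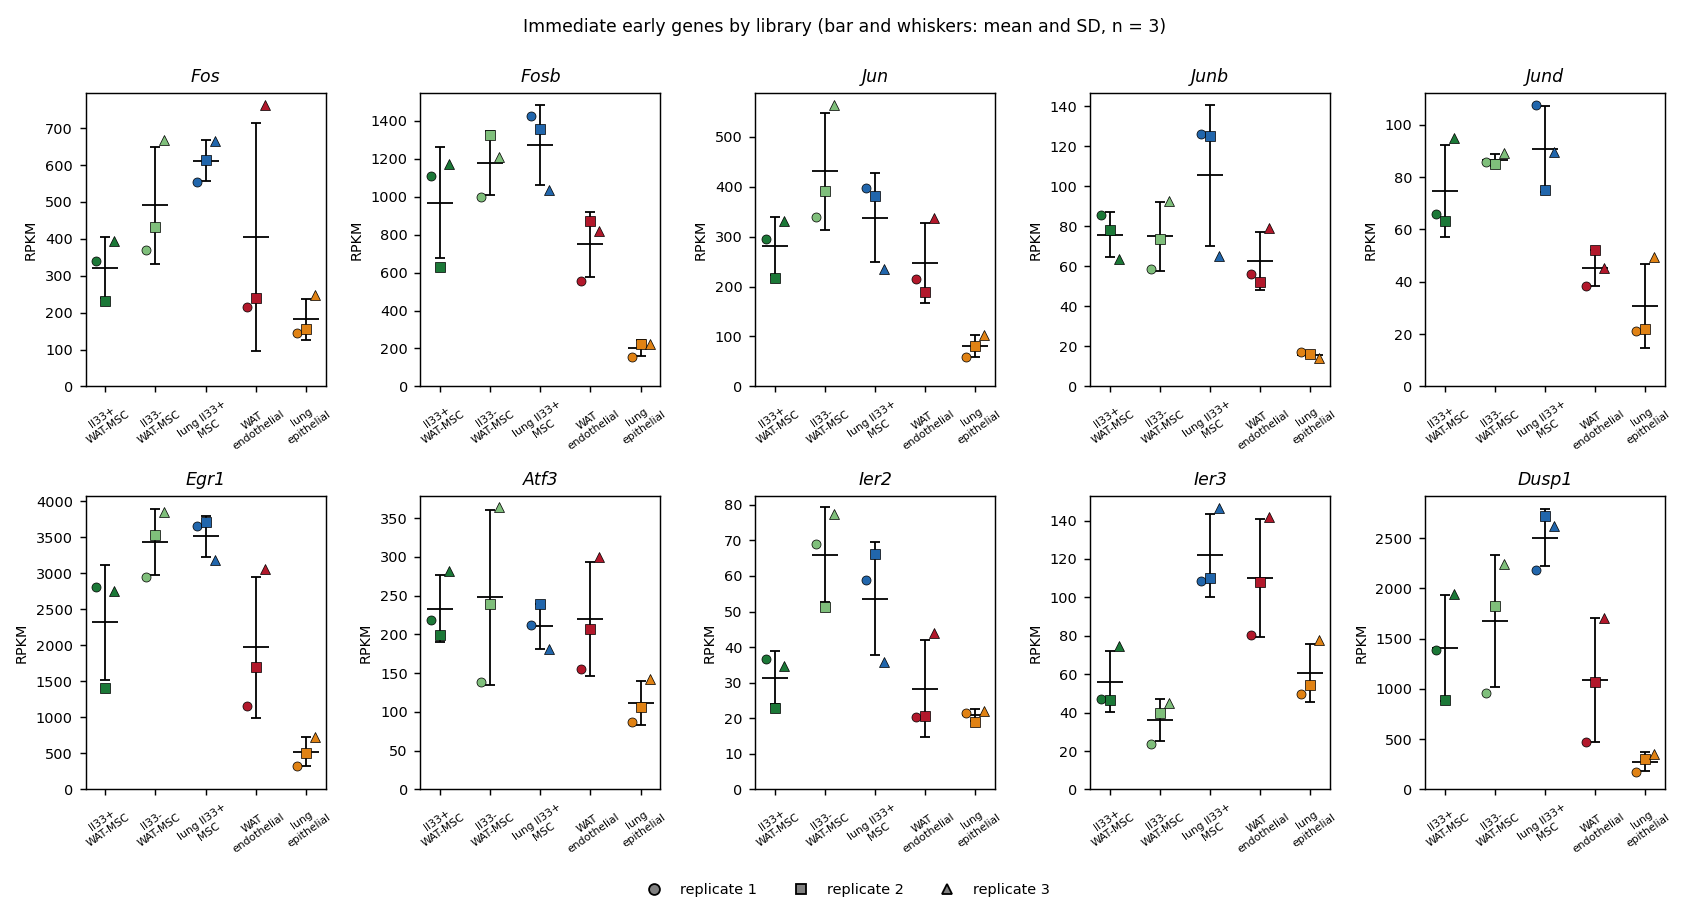
RPKM (vertical axes, linear and starting at 0, with a scale for each gene) of the 10 immediate early genes in the 3 libraries of each population, with the mean and SD (n = 3) as a bar and whiskers. The lung epithelial cells had the lowest mean for 9 genes, while Ier3 had its lowest mean, 36.3 RPKM, in Il33- WAT-MSC.

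Among the AP-1 subunits, Fosb and Fos were the most abundant FOS family members and Jun the most abundant JUN family member in each population. Fosb, which encodes a FOS family partner of JUN proteins, measured 1107, 630 and 1170 RPKM in the 3 Il33+ WAT-MSC libraries, 996, 1325 and 1211 in Il33- WAT-MSC, 1425, 1356 and 1032 in lung Il33+ MSC, 554, 873 and 817 in the endothelial cells and 154, 224 and 226 in the epithelial cells. The epithelial libraries lay below all others, and the other 4 populations overlapped with their neighbours in the order of means. Fos, the founding member of the family, measured 339, 231 and 394 RPKM in Il33+ WAT-MSC, 370, 433 and 669 in Il33- WAT-MSC, 555, 614 and 666 in lung Il33+ MSC, 215, 239 and 763 in the endothelial cells and 144, 155 and 247 in the epithelial cells. A single endothelial library stood far above its 2 replicates, and every pair of neighbours in the order of the 5 means overlapped.

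Jun, the central DNA-binding partner in AP-1, measured 295, 217 and 331 RPKM in Il33+ WAT-MSC, 339, 391 and 563 in Il33- WAT-MSC, 398, 380 and 235 in lung Il33+ MSC, 214, 188 and 338 in the endothelial cells and 59.8, 80.1 and 103 in the epithelial cells. All 12 non-epithelial libraries lay above the epithelial ones. Junb and Jund, JUN family members that can restrain JUN activity in some settings, were lower. Junb ranged from 52.3 to 126 RPKM in the non-epithelial libraries and from 14.4 to 17.1 in the epithelial cells. Jund, whose transcript is known to be less dependent on stimuli than the others, had means of 74.6 ± 17.6, 86.7 ± 2.30, 90.7 ± 16.3, 45.3 ± 6.84 and 30.8 ± 16.1 RPKM (SD, n = 3 each) in Il33+ WAT-MSC, Il33- WAT-MSC, lung Il33+ MSC, endothelial and epithelial cells. It was the only member whose endothelial libraries all lay below both WAT-MSC populations and lung Il33+ MSC.

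Egr1, a zinc finger transcription factor, was the most abundant member. It measured 2812, 1402 and 2751 RPKM in Il33+ WAT-MSC, 2942, 3532 and 3842 in Il33- WAT-MSC, 3652, 3704 and 3186 in lung Il33+ MSC, 1153, 1703 and 3060 in the endothelial cells and 326, 507 and 730 in the epithelial cells. By mean RPKM it ranked 6, 2, 4, 2 and 20 among all genes of these populations, in the same order. Atf3, a stress-induced factor of the ATF/CREB family, varied least between populations: it measured 219, 199 and 282 RPKM in Il33+ WAT-MSC, 139, 239 and 365 in Il33- WAT-MSC, 212, 239 and 181 in lung Il33+ MSC, 155, 206 and 299 in the endothelial cells and 86.6, 107 and 142 in the epithelial cells. Its 4 highest means, 210 to 248 RPKM, came from populations whose libraries overlapped, and the epithelial libraries overlapped with those of Il33- WAT-MSC.

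Dusp1, the phosphatase that turns off MAP kinases, measured 1390, 890 and 1939 RPKM in Il33+ WAT-MSC, 958, 1829 and 2245 in Il33- WAT-MSC, 2179, 2715 and 2618 in lung Il33+ MSC, 476, 1066 and 1709 in the endothelial cells and 176, 301 and 353 in the epithelial cells. The lung Il33+ MSC libraries lay close together, whereas the endothelial libraries differed by 3.59-fold from lowest to highest. Ier2, a nuclear protein with few assigned functions, measured 36.8, 22.9 and 34.7 RPKM in Il33+ WAT-MSC, 69.0, 51.3 and 77.5 in Il33- WAT-MSC, 58.9, 66.2 and 35.9 in lung Il33+ MSC, 20.4, 20.7 and 44.1 in the endothelial cells and 21.4, 18.9 and 22.1 in the epithelial cells. Ier3, which encodes a regulator of cell survival and ERK signalling, measured 47.2, 46.6 and 74.8 RPKM in Il33+ WAT-MSC, 23.8, 40.0 and 45.0 in Il33- WAT-MSC, 109, 110 and 147 in lung Il33+ MSC, 80.3, 108 and 142 in the endothelial cells and 49.8, 54.2 and 77.8 in the epithelial cells. Ier3 thus had another order than the rest, with lung Il33+ MSC and endothelial cells highest and overlapping each other, and no overlap between endothelial and epithelial cells or between the 2 WAT-MSC populations.

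Whether the level differed among the 5 populations was tested with limma's moderated F test over all 15 libraries. It passed an adjusted p of 0.05 for 9 of the 10 members, where 42.7% of all 9981 genes tested passed. The largest F values were those of Junb (27.8, adjusted p = 8.72e-06) and Fosb (27.2, adjusted p = 9.81e-06), and Atf3 missed the threshold (F = 3.70, adjusted p = 0.0627). Larger F values than those of Junb and Fosb were found for 11.4 and 11.6% of all genes. In fits with 1 library left out, 8 to 10 members passed, with 8 only without epithelial replicate 1 or 2 and 10 without Il33- WAT-MSC replicate 1 or endothelial replicate 1 or 3.

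Pairs of populations were then compared on log2(RPKM + 1) with limma, each with 3 libraries against 3, and differences are given as the first population minus the second. In bulk RNA, fewer cells with a transcript and less of it per cell cannot be told apart. The comparisons of Il33+ WAT-MSC with Il33- WAT-MSC, with lung Il33+ MSC and with endothelial cells share the Il33+ WAT-MSC libraries, and the comparison of lung Il33+ MSC with epithelial cells shares its MSC libraries with one of them.

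**Figure D2:**
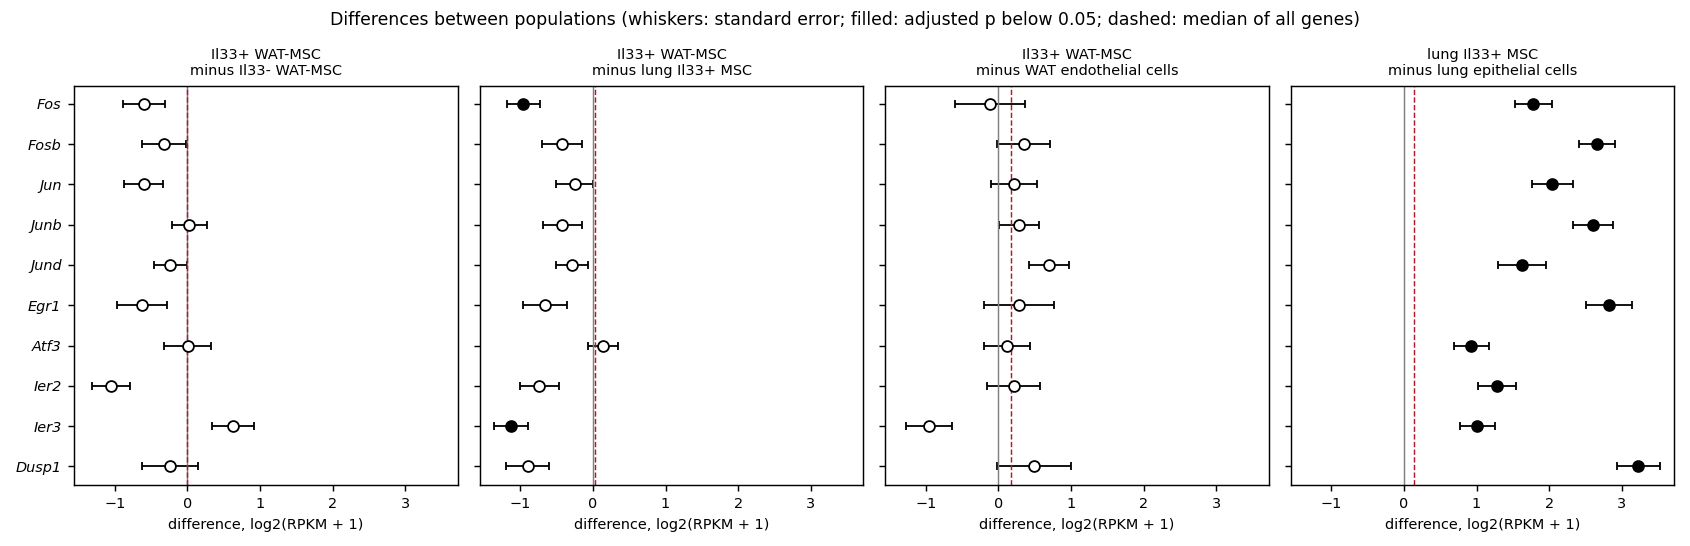
Difference in log2(RPKM + 1) of each member in 4 comparisons (horizontal axis, first population minus second), with the standard error as whiskers and filled points for an adjusted p below 0.05. No point is filled in the comparisons of Il33+ WAT-MSC with Il33- WAT-MSC and with endothelial cells, 2 are filled to the left of 0 against lung Il33+ MSC, and all 10 are filled to the right of 0 for lung MSC against lung epithelium.

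Lung Il33+ MSC had more of all 10 transcripts than lung epithelial cells. Every member passed the test with its libraries entirely above the epithelial ones. Across all 9352 genes tested, 43.0% passed in either direction, 24.4% were higher in the MSC, and libraries did not overlap for 53.4%. The median difference was 1.91 over the members and 0.13 over all genes. Dusp1 differed most (3.23, SE 0.30, 9.35-fold, adjusted p = 2.45e-05), followed by Egr1 (2.82, SE 0.32, 7.08-fold, adjusted p = 8.78e-05), Fosb (2.66, SE 0.25, 6.32-fold) and Junb (2.60, SE 0.28, 6.07-fold). Jun (2.04), Fos (1.78), Jund (1.62) and Ier2 (1.28) were intermediate. Ier3 (1.01, SE 0.24, adjusted p = 0.00716) and Atf3 (0.93, SE 0.24, 1.90-fold, adjusted p = 0.0116) differed least. All 10 differences were positive in each of the 2 sequencing lanes, from 0.75 to 3.03 in the lane with 2 libraries of each population and from 1.11 to 3.62 in the lane with 1 of each, which has no replicate check.

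The size of these differences depended on how the libraries were scaled, and the part of Scgb1a1 in this was not tested. When every library was scaled to the same summed RPKM without Scgb1a1, the median difference became 1.26 over the members and -0.37 over all genes. In that scaling 7 of 10 members passed, and Ier2 (adjusted p = 0.0811), Ier3 (adjusted p = 0.138) and Atf3 (adjusted p = 0.282) did not. The share of all called genes that were higher in the MSC was 56.85% as deposited and 33.72% in that scaling. Quantile normalization left 8 members called and turned the difference of Atf3 to -0.069 (adjusted p = 0.793). Fos, Fosb, Jun, Junb, Jund, Egr1 and Dusp1 passed in every one of the 16 alternatives tried. Atf3 also missed the threshold without lung Il33+ MSC replicate 2 (adjusted p = 0.0642). Stromal markers and the leukocyte and mesothelial sums given above also differed between these populations. In the epithelial cells the leukocyte sum was mostly Lyz2 and the mesothelial sum mostly Krt19. The part of these transcripts in the result was not tested.

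A ratio of 2 members within a library does not depend on how the library is scaled. Relative to Fos, the epithelial cells had less Fosb, Egr1 and Dusp1 than the lung Il33+ MSC. The Fosb to Fos ratio of RPKM was 2.57, 2.21 and 1.55 in lung Il33+ MSC and 1.07, 1.45 and 0.917 in the epithelial cells, and was 2.99 ± 0.27 (SD, n = 3) in Il33+ WAT-MSC. The Egr1 to Fos ratio was 6.58, 6.03 and 4.78 in lung Il33+ MSC against 2.26, 3.27 and 2.96 in the epithelial cells, and the Dusp1 to Fos ratio was 3.93, 4.42 and 3.93 against 1.22, 1.94 and 1.43. None of these 3 ratios, which share Fos as the denominator, overlapped between MSC and epithelial libraries. With 3 against 3 an exact permutation test cannot give a p below 0.1. Of the other ratios computed, those of Jun to Junb, Jun to Jund and Ier3 to Ier2 overlapped, and that of Egr1 to Atf3 did not. The share without overlap over all pairs of genes is not given here. The Dusp1 to Egr1 ratio was 0.717 ± 0.113 in lung Il33+ MSC and 0.539 ± 0.055 in the epithelial cells, also without overlap but with the lowest MSC library at 0.597 and the highest epithelial one at 0.594.

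Il33+ WAT-MSC had lower levels of Fos and Ier3 than lung Il33+ MSC. These 2 of 10 members passed, where 6.00% of all 8554 genes passed and 3.50% were lower in the WAT cells. Libraries did not overlap for 4 of 10 members (Fos, Egr1, Ier3 and Dusp1), against 23.1% of all genes. Of the 10 differences 9 were negative, with a median of -0.55 against 0.03 over all genes. Ier3 was 2.18-fold lower (-1.13, SE 0.23, adjusted p = 0.0162) and Fos 1.94-fold lower (-0.96, SE 0.23, adjusted p = 0.0362) in the WAT cells. Dusp1 (-0.90, adjusted p = 0.133), Ier2 (-0.73, adjusted p = 0.179) and Egr1 (-0.66, adjusted p = 0.296) did not pass, and Atf3 had the only positive value (0.14, adjusted p = 0.804).

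Neither call was stable when libraries were left out. The adjusted p of Fos ranged from 0.0146 to 0.333 over the 16 alternatives and was not below 0.05 in 8 of them, including 5 of the 6 fits with 1 library left out. That of Ier3 ranged from 0.00697 to 0.0723 and was not below 0.05 in 4, those without Il33+ WAT-MSC replicate 1 or any 1 of the lung Il33+ MSC libraries. Without Il33+ WAT-MSC replicate 3, 3 members passed, as Dusp1 then had an adjusted p of 0.0498. Within lanes, each with a single library on one side, the differences were -0.98 and -0.70 for Fos and -1.20 and -0.76 for Ier3. Mesothelial markers were higher in the WAT cells (4 of 5 passed, summed RPKM of 30.0 to 98.2 against 4.56 to 6.57) and leukocyte markers lower (2 of the 5 tested passed, 7.27 to 12.02 against 136 to 168), and their part in the result was not tested.

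Between Il33+ and Il33- WAT-MSC, which were separated by the reporter gate, no member passed, where 1.57% of all 8448 genes passed. At an unadjusted p below 0.05 there were 2 members, Jun and Ier2, against 980 of all 8448 genes. Libraries did not overlap for 4 of 10 members (Jun, Egr1, Ier2 and Ier3), against 17.5% of all genes. Ier2 was 2.07-fold lower in Il33+ WAT-MSC (-1.05, SE 0.26), with an adjusted p of 0.0832. With the replicate number as a block in the limma fit, Ier2 passed (adjusted p = 0.0203). Ier3 had the opposite sign (0.63, SE 0.29, adjusted p = 0.441). The ratio of Ier3 to Ier2 within a library was 1.28, 2.03 and 2.15 in Il33+ against 0.345, 0.778 and 0.580 in Il33- WAT-MSC. Because these 2 genes were each without overlap and in opposite directions, their ratio could not overlap and adds nothing to their separate values. Egr1 (-0.63, SE 0.34), Jun (-0.60, SE 0.27) and Fos (-0.60, SE 0.29) had negative values, and Junb (0.03) and Atf3 (0.00) were close to 0, with a sign that changed with the scaling. No mesothelial or leukocyte marker passed here. Their median differences were 2.28 over 5 mesothelial markers and -1.45 over the 3 leukocyte markers tested. Leukocyte markers summed to 7.27 to 12.02 RPKM in Il33+ and 19.7 to 41.7 in Il33- WAT-MSC. The part of these transcripts in the comparison was not tested.

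Between Il33+ WAT-MSC and WAT endothelial cells no member passed either, where 3.90% of all 8665 genes passed. At an unadjusted p below 0.05 there were 2 members, Jund and Ier3, against 1335 of all 8665 genes. These 2 were also the only members without overlap, where 23.2% of all genes had none. Jund was 1.62-fold higher in the stromal cells (0.69, SE 0.27, adjusted p = 0.265) and Ier3 1.94-fold lower (-0.95, SE 0.31, adjusted p = 0.169). The median of all genes was 0.18 in this comparison and that of the members 0.25. Under 3 other scalings Ier3 passed: its adjusted p was 0.0356 with median-ratio scaling, 0.0299 with quantile normalization and 0.0251 with equal sums without Scgb1a1. The endothelial libraries also held stromal markers, at a median of 32.6, 36.3 and 58.9% of the Il33+ WAT-MSC level in replicates 1, 2 and 3, and replicate 3 was the library with the highest Fos, Egr1 and Dusp1 of the 3. Pericyte and smooth muscle markers were also higher in the endothelial cells (3 of 5 passed, summed RPKM of 174 to 257 against 10.3 to 18.8). The part of these transcripts in the comparison was not tested.

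**Figure D3:**
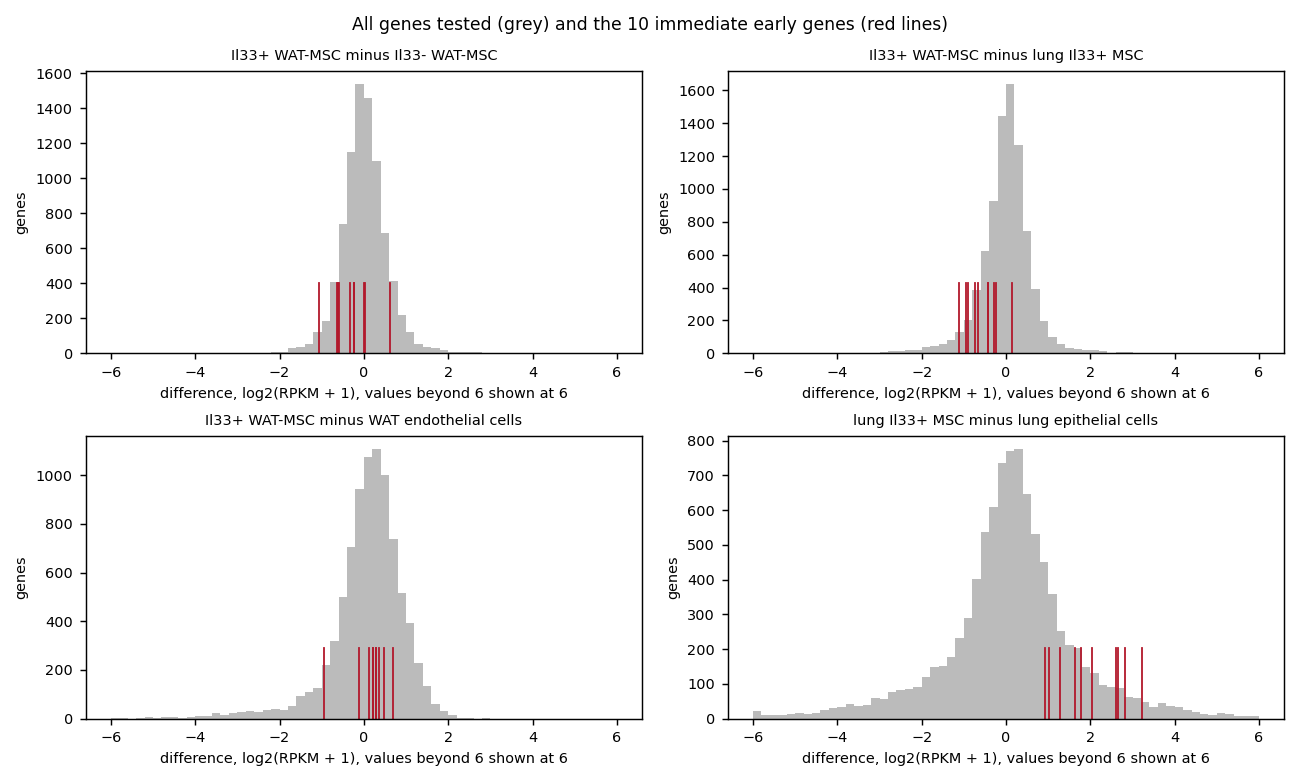
Number of genes (vertical axis) by difference in log2(RPKM + 1) (horizontal axis, bins of width 0.2) for all genes tested in each of 4 comparisons, with a red line at each of the 10 members. The members spread over the range of the other genes around 0 in both comparisons where none passed, lean to negative values against lung Il33+ MSC, and lie between 0.93 and 3.23 for lung MSC against lung epithelium.

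Pooled over the 5 populations, most pairs of members varied together within a population. Each library's deviation from the mean of its own population was taken in log2(RPKM + 1), which removes differences between populations. Over the 15 libraries the deviations of 43 of the 45 pairs of members had a positive Pearson r, with a median of 0.626 and a range from -0.217 (Junb and Jund) to 0.881 (Atf3 and Dusp1). Between members and the other 4473 genes with a mean of at least 5 RPKM the median r was 0.273. The points share libraries and depth, and the deviations of a population sum to 0, so these values are descriptions. After median-ratio scaling the medians were 0.304 and -0.005, and 36 of the 45 pairs were positive. The pattern did not hold equally in every population. In lung Il33+ MSC replicate 3, 7 members were below the population mean, including Junb (-0.63) and Ier2 (-0.52). Ier3 (0.28), Fos (0.13) and Dusp1 (0.07) were above it. In epithelial replicates 1 and 3, Junb deviated by 0.11 and -0.12, while the mean of the members deviated by -0.309 and 0.352.

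**Figure D4:**
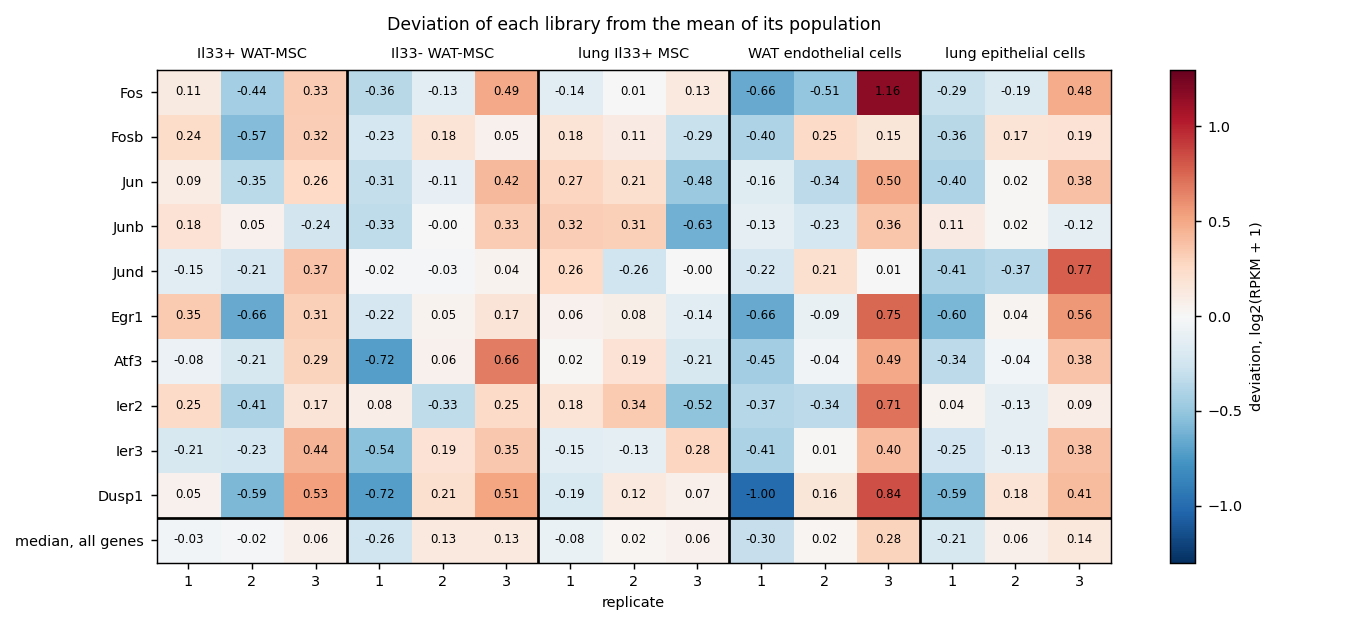
Deviation of each library from its population's mean in log2(RPKM + 1) (colour and printed value) for the 10 members (rows) in 15 libraries (columns, by population and replicate), with the median of all genes in the last row. All 10 members were below the mean in endothelial replicate 1 and above it in endothelial replicate 3 and Il33- WAT-MSC replicate 3. Replicate 3 was the only library of each WAT population in lane 2.

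The mean deviation of the 10 members was -0.445 in endothelial replicate 1 and 0.538 in endothelial replicate 3, where the median deviation of all genes was -0.302 and 0.285. In each WAT population replicate 3 was the only library in lane 2, so replicate and lane cannot be told apart there. In Il33- WAT-MSC replicate 1 the members deviated by -0.336 and all genes by -0.261. Both of these first replicates were also the libraries with most transcripts at 0, 10.9 and 7.41% of those listed. Il33+ WAT-MSC replicate 2 differed from this pattern: it had the lowest value of its population for 9 of the 10 members, with a mean deviation of -0.362, while the median of all genes deviated by -0.021. The widest ranges of single genes were those of Dusp1 and Fos in the endothelial cells, from -1.001 to 0.84 for Dusp1 and from -0.66 to 1.16 for Fos.

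The 8 genes whose deviations were most like the mean of the members, among 4473 compared over 15 libraries, were Nfkbiz (r = 0.944), Ptprs (0.919), Nisch (0.918), Zfp36 (0.916), Zfp385a (0.912), Ergic3 (0.912), Dnajb1 (0.909) and BC017158 (0.908). Nfkbiz, a nuclear IκB protein, and Zfp36, which encodes a protein that destabilises AU-rich mRNAs, were also on the list of other immediate early genes. Ptprs, Nisch, Zfp385a and BC017158 had means of 6.10 to 21.1 RPKM. An r above 0.5 was found for 21 of the 49 other immediate early genes compared, 42.86%, and for 39.84% of all genes.

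The list of other immediate early genes held 55 symbols, of which 54 were in the table. Zfp36 was the most abundant, at 2791 ± 403 RPKM in Il33+ WAT-MSC, 3316 ± 717 in Il33- WAT-MSC and 5057 ± 259 in lung Il33+ MSC (SD, n = 3 each). Its mean was above that of Egr1 in Il33+ WAT-MSC, lung Il33+ MSC and epithelial cells, and below it in Il33- WAT-MSC and endothelial cells. For lung Il33+ MSC against epithelial cells 36 of 54 passed as higher and 1 as lower, with a median difference of 1.54, where 24.4% of all genes were higher and 18.5% lower. The greatest were Cyr61 (4.37) and Ctgf (4.04), both secreted matrix-associated proteins, and Id3 (3.88) and Klf4 (3.66), both regulators of transcription. Hes1, a Notch target, was lower in the MSC (-2.01, adjusted p = 0.00031). Against lung Il33+ MSC, Il33+ WAT-MSC had 1 of 53 higher, the kinase gene Sgk1 (1.20), and 5 lower, including Ctgf (-1.85), Cyr61 (-1.81), the serum response factor gene Srf (-1.39) and the nuclear receptor gene Nr4a1 (-1.27), where 6.00% of all genes passed. Between Il33+ and Il33- WAT-MSC, Ctgf was higher (1.57, adjusted p = 0.037) and Arc (-1.79, adjusted p = 0.0166) and Rhob (-1.25, adjusted p = 0.0237) were lower of 53 tested, where 1.57% of all genes passed. Against endothelial cells, Dusp2 (-2.20), Plk2 (-2.06) and Egr3 (-1.97) were lower in Il33+ WAT-MSC and none was higher, of 54 tested, where 3.90% of all genes passed. With 1 library left out, the number of the list that passed was 34 to 39 for lung MSC against epithelium, 3 to 6 against lung Il33+ MSC, 0 to 2 between the WAT-MSC populations and 0 to 3 against endothelial cells. Under the other alternatives it was 35 to 41, 3 to 8, 0 to 6 and 2 to 5. The call of Ctgf between the WAT-MSC populations and that of Dusp2 were each lost in 9 alternatives, and those of Arc and Rhob in 6 each. Dusp2 had a mean of only 0.573 RPKM in Il33+ WAT-MSC. The calls of Sgk1 and Srf against lung Il33+ MSC and of Egr3 were lost in 3 each, and that of Plk2 in 1. Ctgf, Cyr61 and Nr4a1 passed against lung Il33+ MSC in all 16.

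Among 19 upstream regulators in the table (receptors, kinases and transcription factors that drive immediate early genes), none passed between Il33+ and Il33- WAT-MSC. For lung Il33+ MSC against epithelial cells 6 of 19 passed, all higher in the MSC, near the 24.4% of all genes that were higher. Against lung Il33+ MSC, Il33+ WAT-MSC had 1 of 19 higher and 1 lower, where 6.00% of all genes passed. The lower one was Srf, which is also on the list of other immediate early genes. Against endothelial cells 1 of 18 tested was higher and 1 lower, where 3.90% of all genes passed. The 17 heat shock genes, which respond to protein damage and which dissociation can also induce, did not move in 1 direction: for lung Il33+ MSC against epithelial cells 7 were higher and 5 lower of 17, against 24.4% and 18.5% of all genes, with a median of -0.11. The higher ones included Dnajb1 (2.72), Bag3 (2.49), Hspa1b (2.26) and Dnajb4 (1.92), which encode cochaperones and an inducible HSP70. The lower ones included Hspa4l (-3.70), Hsph1 (-1.68), Hsp90aa1 (-1.32) and Chordc1 (-0.98). Of the remaining comparisons only that of Il33+ WAT-MSC with lung Il33+ MSC had a heat shock gene that passed, Dnajb1 (-1.18, adjusted p = 0.0143). That call was lost in 4 of 16 alternatives: the number of heat shock genes that passed was 0 in one fit of all libraries and without Il33+ WAT-MSC replicate 1 or lung Il33+ MSC replicate 1 or 2, and 2 without Il33+ WAT-MSC replicate 3. Against endothelial cells 1 heat shock gene passed with a replicate block and in one fit of all libraries.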

How the data were processed

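RNA of 15 libraries from 5 sorted populations was amplified (Ovation RNA-seq System), sequenced in 2 lanes and, per the submitters' processing notes and the paper's methods, aligned to mm10 with TopHat2 in Partek Flow. The authors deposited RPKM for 12698 transcripts. How reads were shared between transcripts and which transcripts were listed is not given in the sources used here, and read counts were not used, so each error is the spread between libraries. The labels give the replicates as independent experiments.

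RPKM was summed per symbol (0 columns lacked a sample). limma 3.58.1 in R 4.3.3 (lmFit, eBayes with trend) was fitted on log2(RPKM + 1), where the 1 understates changes of low genes. Genes under 1 RPKM were dropped unless 3 or more of the libraries fitted reached it, and p was adjusted by Benjamini-Hochberg over all genes tested, with a threshold of 0.05. The 10 members passed this filter in all 4 comparisons. The fit was checked on simulated data. Python 3.11.15 was used for the rest. The tables of RefSeq promoters and genes are on GRCm38.p6. The members and gene lists were chosen with earlier results of these data known.

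Genes named beyond the members are up to 4 per list, comparison and direction with the greatest differences among those past the threshold (immediate early and heat shock lists), and the 8 genes most like the members. Zfp36 was also named for its level, after its values were seen. Alternatives were a replicate block, lane as a covariate, one fit of all libraries, quantile normalization, median-ratio scaling, no filter, a minimum of 5 RPKM, 0.1 as the pseudocount, the most abundant transcript, each library left out and, added after the data were seen, equal sums without Scgb1a1.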

Additional observations from a re-analysis of the deposited data

How the results depend on the processing

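No member changed its call for lung Il33+ MSC against lung epithelial cells under the lane, block, pooled fit, pseudocount and filter alternatives, but quantile normalization reversed Atf3 (-0.069). Of 640 differences recomputed for the 10 members in 4 comparisons, 588 kept direction and call, 17 lost the call, 5 gained one and 30 changed sign, and of those 30 all but that of Atf3 were among differences that did not pass. The number of members passing was 1 instead of 2 for Il33+ WAT-MSC against lung Il33+ MSC with lane as a covariate, in one fit of all libraries and without a filter, and 0 to 3 with 1 library left out. It was 1 instead of 0 (Ier3) against endothelial cells under median-ratio scaling, quantile normalization and equal sums. The causes were not tested.

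With the replicate number as a block, 1 member instead of 0 passed between Il33+ and Il33- WAT-MSC (Ier2, adjusted p = 0.0203), and all genes passing went from 133 to 232. The block changed no other call of a member. Same-numbered libraries had correlations of their deviations from -0.067 to 0.155, not all over 0.1 in any comparison, so the numbers were not taken to pair the libraries. In that comparison and in lung MSC against epithelial cells 6 of 6 libraries correlated best with their own number, and in each of the other 2 comparisons 2 of 6 did, as a hint from the data only.

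Sign changes in Il33+ against Il33- WAT-MSC were those of Junb (quantile -0.15, equal sums -0.049, left-out libraries -0.14 to 0.19), Atf3 (median-ratio -0.0044, quantile -0.16, equal sums -0.074, left-out libraries -0.36 to 0.34) and Dusp1 (left-out libraries -0.60 to 0.056). Against lung Il33+ MSC, Atf3 ranged from -0.0026 to 0.25 with 1 library left out. Against endothelial cells quantile normalization gave Fosb -0.32, Jun -0.26, Egr1 -0.32, Atf3 -0.30 and Dusp1 -0.26, median-ratio scaling gave Jun -0.0067, Atf3 -0.10 and Ier2 -0.0021, and equal sums gave Jun -0.048, Atf3 -0.14 and Ier2 -0.042. Leaving out 1 library there gave ranges from -0.44 to 0.47 for Fos, -0.045 to 0.66 for Egr1, -0.11 to 0.37 for Atf3 and -0.012 to 0.91 for Dusp1. Over all genes, the number passing ranged over the settings other than left-out libraries from 45 to 232 (133 as reported) for Il33+ against Il33- WAT-MSC, 336 to 556 (513) against lung Il33+ MSC, 252 to 805 (338) against endothelial cells and 2699 to 4508 (4019) for lung MSC against epithelial cells, and with 1 library left out from 49 to 121, 191 to 447, 56 to 261 and 2835 to 3300.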
